A study of Mus musculus with 3 samples.

Results

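RNA of a mammary cell fraction gated on intermediate EpCAM and high CD29 (the library E-Int29-Hi) was compared, gene by gene, with RNA of mammary gland that had not been dissociated (the library MG). EpCAM is an adhesion protein of epithelial cells, and CD29 is the integrin subunit encoded by Itgb1. Both libraries came from mice of the FVB strain with no treatment stated, and each is 1 pool of 3 combined samples. Values are in FPKM, which scales the fragments of a gene model to its length and to the mapped total. The sources used here give no age, reproductive state or number for the mice, and no number of sorted cells. The sorted cells were labelled as enriched for cells able to seed the lung. The series also holds a library of mammary cells recovered from the lungs of injected mice (LCC). By its label, those cells came from GFP mice or were cells of FVB mice stained with DDAO, combined over many experiments. LCC thus differs in origin from the 2 libraries compared, and it is shown in figures and quoted only where it bears on a gene. Of the 22378 gene models in each table, 22211 had an OK status in both libraries, and 12489 of these reached 1 FPKM on at least 1 side and were compared. Values are written with E-Int29-Hi first and MG second. A gene is called higher or lower when log2((E-Int29-Hi FPKM + 1)/(MG FPKM + 1)) is 2 or more in size, that is 4-fold, and every log2 difference given is on that scale, which understates the difference of weakly expressed genes. With 1 library on each side there was no replicate check and no test, so every value describes these 2 pools.

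The mammary epithelium has a luminal layer, which lines the ducts and makes milk, and a basal layer of myoepithelial cells, which lie on the basement membrane and contract in response to oxytocin. Basal cells carry more CD29 and less EpCAM than luminal cells, and cell fractions gated in this way have been used to enrich for mammary repopulating cells. The intact gland adds fibroblasts, vessels, nerves, fat cells and leukocytes. In pooled RNA, fewer cells of a type and less RNA per cell cannot be told apart. The sorted cells were also taken out of the tissue and sorted, whereas MG was not dissociated. Changes through this handling and differences between the cells cannot be told apart either, for any gene below.

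The markers of the gate were abundant on both sides and neither was called. Epcam stood at 279 against 209 FPKM, a log2 difference of 0.42, and Itgb1 at 296 against 198 FPKM, a log2 difference of 0.58. The label of the sort names the gate and no cell layer, and the keratin and contractile genes of the basal layer, given below, were the higher ones. The MG label was met in part: luminal, fibroblast and vessel genes were abundant, but several genes that define fat cells were close to 0. In MG, Adipoq, the fat cell hormone adiponectin, stood at 1.12 FPKM, Lep, the hormone leptin, at 0.614 FPKM, and Plin1, the coat protein of the fat droplet, at 0.575 FPKM. Other genes of fat cells, which other cells also make, were abundant there, with Fabp4, a fatty acid carrier, at 845 FPKM, Cd36, a fatty acid transporter, at 152 FPKM, and Lpl, lipoprotein lipase, at 49.97 FPKM. The whole fat cell list summed to 1118 FPKM in MG. An undissociated gland would hold its fat pad, so the low values are set down here beside the label. Their part in the results was not tested.

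The FPKM values of E-Int29-Hi summed to 330432 and those of MG to 291133. Over the models with an OK status in both libraries, 4.85% and 5.82% of the summed FPKM came from genes of the mitochondrial genome. The 100 most abundant of these models held 28.6% and 22.95%. Read numbers are not given, and among 1244 genes above 0 but under 0.1 FPKM in both libraries the commonest ratio of E-Int29-Hi to MG was 1.05 (130 genes). The sorted library had 4984 models listed at 0 and MG had 3184. Of 1086 olfactory receptor genes, which mammary cells are not known to use, 35 and 282 stood above 0.

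Most genes had like levels in both libraries. Of the 12489 gene models, 9428 (75.5%) lay within 2-fold, 325 (2.6%) were higher in the sorted cells and 495 (3.96%) were lower. The differences reached 16-fold for 19 higher and 44 lower models. The median log2 difference was -0.23, with quartiles of -0.72 and 0.31. At the edge of the rule, Pawr was the last model counted as higher, at 104 against 25.3 FPKM (log2 difference 2.0001), and Flna the first left out, at 457 against 113 FPKM (1.9999). On the other side, Cygb was the last counted as lower, at 2.94 against 14.8 FPKM (-2.0008), and Tgm2 the first left out, at 64.3 against 260.1 FPKM (-1.9989).

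The balance of the calls differed between settings. The higher models made up 39.6% of those called with FPKM as deposited. They made up 57.6% (468 higher, 344 lower) after each library was divided by its median ratio to the geometric mean of both, and 26.7% (373 higher, 1022 lower) after rescaling to 1 fixed, larger sum per library (TPM), without mitochondrially encoded, small RNA and unnamed models. A pseudocount of 0.1 FPKM with no rescaling gave 32.4% (523 higher, 1092 lower). Median ratio scaling moves a log2 difference up, by at most 0.36. TPM changes the ratio between the libraries by -0.17 on the log2 scale, but 1 TPM is also less than 1 FPKM here, so the 1 added weighs less and differences of weakly expressed genes grow. The TPM counts therefore join a change of scale, of pseudocount and of the models kept. Neither rescaling turned the direction of any named gene that was called 4-fold apart. Each list of genes below is therefore read beside the median of all models and beside the 2.6% and 3.96% called over all of them.

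**Figure D1:**
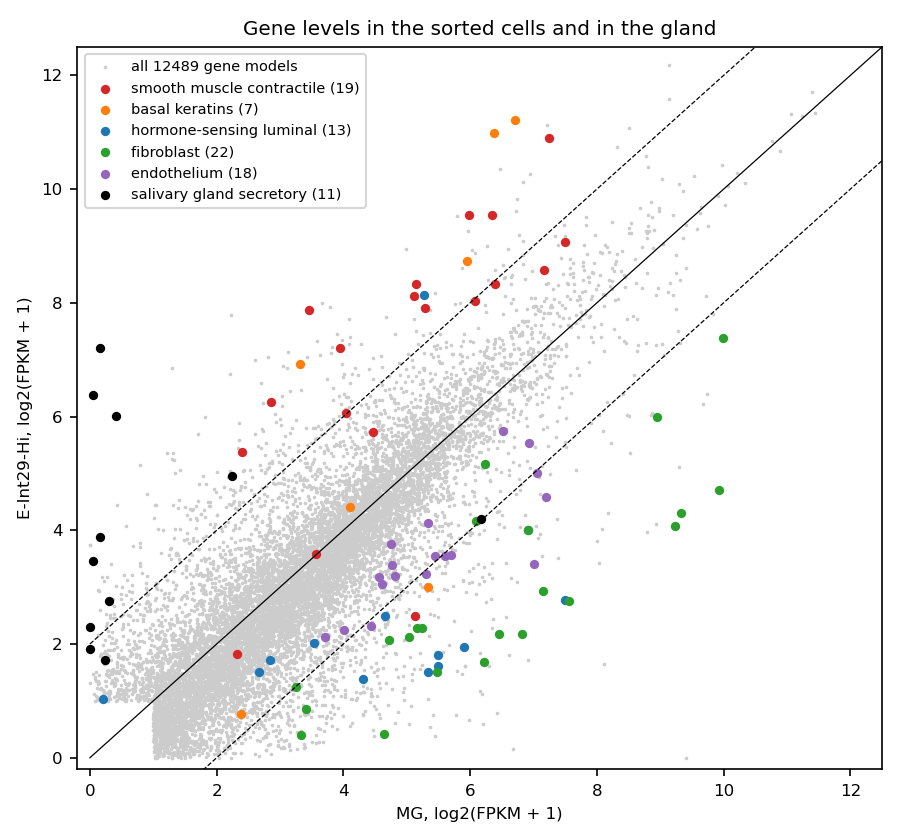
Level of each of the 12489 gene models, as log2(FPKM + 1), in MG (horizontal) and in E-Int29-Hi (vertical), with 6 gene lists in colour. The solid line marks equal levels and the dashed lines the 4-fold rule: most contractile and basal keratin genes lie above the upper line, and most fibroblast genes lie below the lower one.

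Keratins, the intermediate filament proteins of epithelia, split by cell layer. Of 7 basal keratin genes, 4 were higher in the sorted cells and 1 lower (median log2 difference 2.79). Krt14 and Krt5 form the filament pair of basal epithelium. Krt14 stood at 2380.5 against 104 FPKM, a log2 difference of 4.50, and Krt5 at 426 against 60.7 FPKM, a log2 difference of 2.79. Krt17, a keratin of basal cells and of wounded or appendage epithelium, stood at 2029 against 82.5 FPKM, a log2 difference of 4.60. Krt16, a partner of the wound keratins, stood at 121 against 8.91 FPKM, but 37.6% of the 50-base windows of its transcripts also occur in other genes, against 13.9% for Krt14 and 3.99% for Krt17, so its own value is less certain. The basal keratins did not all stand on 1 side. Krt15 stood at 20.3 against 16.1 FPKM, under the 4-fold rule, and Krt6a, a keratin of stressed epithelium, was the lower member, at 6.98 against 39.5 FPKM. For Krt6a the shared windows came to 45.7%.

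The keratins of simple epithelium took the opposite direction, with 4 of 6 lower and 1 higher (median -3.47). Krt18 stood at 73.5 against 819 FPKM and Krt19 at 16.2 against 488 FPKM, both filament proteins of luminal cells. Krt8, the partner of Krt18, stood at 179.7 against 624 FPKM, which fell short of the rule (log2 difference -1.79). Krt4, a keratin of mucosal lining cells, stood at 0.117 against 102 FPKM, a log2 difference of -6.52, which is the most negative of any list member. Krt23 was the exception and stood higher, at 25.6 against 2.87 FPKM.

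The contractile genes of smooth muscle, which myoepithelial cells share, held more higher genes than any other list, 11 of 19, and 1 member was lower (median 2.62). The thin filament genes included Acta2, smooth muscle actin, at 1901 against 151 FPKM, a log2 difference of 3.65. Tagln, an actin-bundling protein, stood at 744 against 62.05 FPKM, and Tpm2, a tropomyosin, at 747 against 80.6 FPKM. Calponin, encoded by Cnn1, stood at 233 against 9.96 FPKM. The motor genes stood with them: Myh11, the smooth muscle myosin heavy chain, at 278 against 33.6 FPKM, Myl9, its regulatory light chain, at 323 against 34.4 FPKM, and Mylk, the kinase that phosphorylates that chain, at 146 against 14.4 FPKM. Actg2, the actin of visceral muscle, stood at 75.4 against 6.28 FPKM. Des, the intermediate filament protein of muscle, stood at 2.56 against 4.01 FPKM, and Synpo2, an actin-associated protein, at 11.02 against 10.9 FPKM. Mustn1, a small protein of muscle and skeletal tissue, was the only lower member, at 4.62 against 33.9 FPKM.

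Serum response factor drives many of these genes through a sequence called the CArG box. RefSeq promoter windows of GRCm38.p6, which run from 250 bases before to 50 bases after a gene start, were found for 7 of the 11 higher contractile genes, and 1 of them held a CArG box on either strand, that of Myl9. Over all 32851 windows the share was 1.63%. The Myl9 window, chr2:156775214-156775513 on the plus strand, is shown since it is the one match, with the box in capitals:
Myl9: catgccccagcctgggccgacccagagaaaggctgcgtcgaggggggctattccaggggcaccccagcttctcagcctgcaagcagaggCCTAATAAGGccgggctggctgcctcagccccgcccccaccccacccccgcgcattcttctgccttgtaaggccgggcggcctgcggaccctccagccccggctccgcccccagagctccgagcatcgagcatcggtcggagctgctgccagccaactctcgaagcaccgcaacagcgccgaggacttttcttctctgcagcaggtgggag
A match of letters is a description and not a bound site, and windows of this length leave out more distant boxes.

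Regulators of contraction were mixed, with 3 higher and 2 lower of 13 (median 0.49), and with 0 lower under median ratio scaling. Oxtr, the oxytocin receptor, stood at 21.3 against 4.79 FPKM, just under the rule (log2 difference 1.95). Prkg1, the kinase that relaxes smooth muscle in response to cyclic GMP, stood at 24.4 against 3.89 FPKM, and Rgs2, which shortens G protein signals, at 43.1 against 7.78 FPKM. Kcnmb1, a potassium channel subunit of smooth muscle, stood at 4.49 against 0.314 FPKM. The endothelin receptor genes were the lower members, Ednra at 1.702 against 11.6 FPKM and Ednrb at 4.39 against 23.9 FPKM. Srf itself stood at 35.2 against 24.8 FPKM. Myocd, the muscle coactivator of that factor, stood under 1 FPKM in both libraries.

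Among transcription factors of basal cells, 4 of 14 were higher and 0 lower (median 1.45). Sox10, a neural crest factor also made by mammary basal and progenitor cells, stood at 215 against 24.5 FPKM, a log2 difference of 3.09. Irx4 stood at 21.7 against 2.63 FPKM, Id4, an inhibitor of helix-loop-helix factors, at 35.4 against 6.08 FPKM, and Snai2, a repressor of epithelial genes, at 39.9 against 7.24 FPKM. Trp63, on which basal epithelium depends, stood at 45.96 against 14.4 FPKM, which did not reach the rule (log2 difference 1.61). Sox9 stood at 49.9 against 71.6 FPKM and Tbx3 at 6.88 against 21.5 FPKM.

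Luminal transcription factors did not all follow the luminal keratins, with 3 higher and 6 lower of 16 (median -0.98). The lower ones included Foxa1, the pioneer factor of the oestrogen receptor, at 0.761 against 10.3 FPKM, Elf5, the factor of the milk-making lineage, at 2.901 against 15.6 FPKM, and Cited1, a coactivator, at 2.85 against 58.7 FPKM. Ehf, an epithelial Ets factor, stood at 1.92 against 18.998 FPKM and Myb at 0.264 against 7.07 FPKM. The higher ones were Runx1 (250.5 against 53.5 FPKM), Tfap2c (69.1 against 15.5 FPKM) and Prdm1 (19.7 against 4.01 FPKM), which are also made outside luminal cells. Gata3, a factor needed for luminal fate, stood at 47.2 against 20.7 FPKM, above MG by less than 4-fold.

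**Figure D2:**
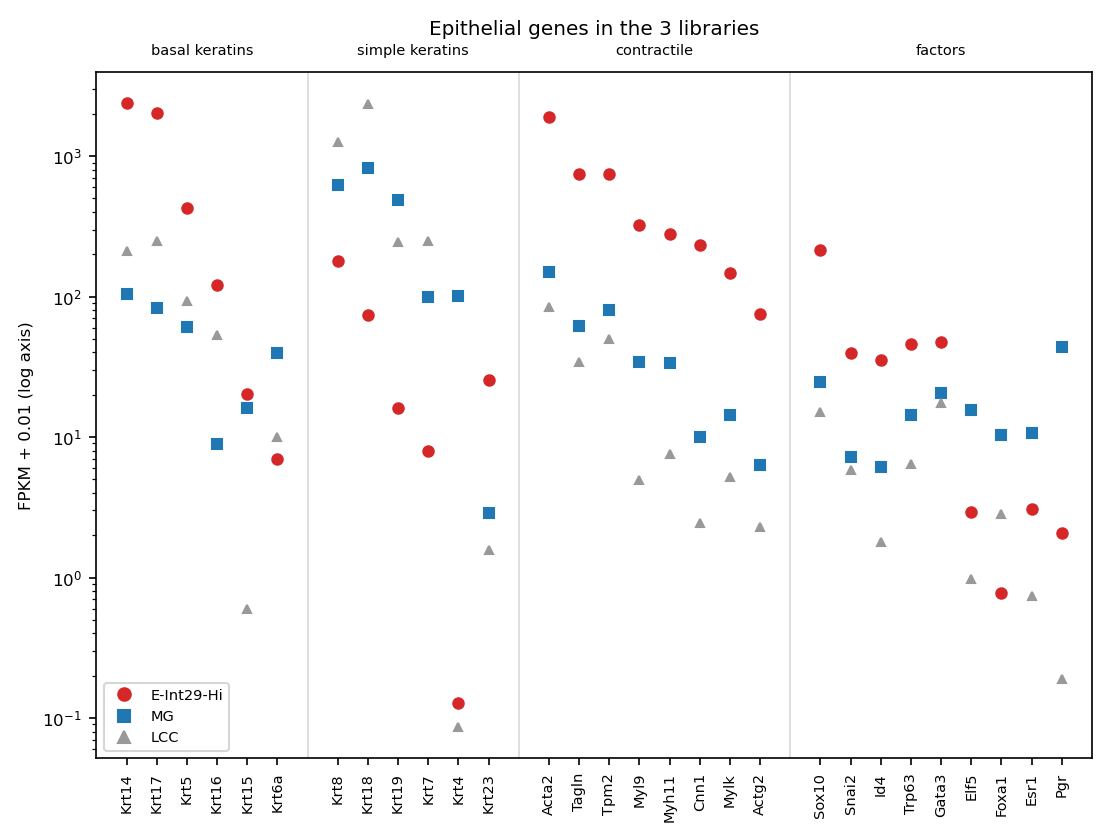
Level of 29 epithelial genes in E-Int29-Hi (circles), MG (squares) and LCC (triangles), as FPKM + 0.01 on a log axis, 1 library each. Krt14 and Acta2 stand more than 10-fold above MG in the sorted cells, whereas Krt19, Krt4 and Pgr stand more than 10-fold below it.

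Genes of the hormone-sensing luminal cells were mostly lower, 8 of 13, with 1 higher (median -2.90). The progesterone receptor gene Pgr stood at 2.07 against 43.9 FPKM, a log2 difference of -3.87. Areg, the growth factor amphiregulin through which oestrogen acts on the ducts, stood at 5.86 against 179 FPKM, and Prlr, the prolactin receptor, at 1.83 against 39.4 FPKM. Esr1, the oestrogen receptor, stood at 3.06 against 10.6 FPKM and was not called (log2 difference -1.52). Rcan1, an inhibitor of calcineurin that many cell types make, was the higher member, at 282 against 37.7 FPKM.

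The luminal progenitor list had 6 of 11 members lower and 0 higher (median -2.09). Aldh1a3, a retinoic acid-forming enzyme, stood at 1.17 against 71.8 FPKM, Kit, the receptor of stem cell factor, at 1.18 against 15.3 FPKM, and Cd14, a lipopolysaccharide coreceptor, at 15.96 against 130.3 FPKM. Lypd3 stood at 45.8 against 54.5 FPKM and Itga2, an integrin subunit, at 26.9 against 25.6 FPKM.

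Milk protein genes were at least 4-fold lower for 7 of 13 members and higher for 1 (median -2.10), and lower for 4 under median ratio scaling. Csn3, kappa-casein, stood at 65.6 against 466 FPKM, Csn2, beta-casein, at 19.4 against 86.5 FPKM, and Lalba, alpha-lactalbumin, at 4.55 against 94.2 FPKM. The higher member was Lcn2, a siderophore-binding protein of innate defence, at 2148 against 363 FPKM. Lcn2 stands on the list of secreted defence proteins as well, which split into 3 higher and 5 lower of 13 (median -0.91). There, Slpi, a secreted inhibitor of leukocyte proteases, stood at 2238 against 147 FPKM, a log2 difference of 3.92, and Chi3l1, a secreted chitinase-like protein, at 1305 against 87.8 FPKM, a log2 difference of 3.88. On the other side, Wfdc2 stood at 13.6 against 134 FPKM, Wfdc18 at 5.69 against 75.1 FPKM and Ltf, lactoferrin, at 9.24 against 73.5 FPKM.

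Basal cells bind the basement membrane through integrins and hemidesmosomes. None of 19 integrin subunit genes was called in either direction, and their median was 0.07. Median ratio scaling called 2 higher, and TPM called 2 lower, with a median of -0.10. The largest log2 difference was that of Itga6, the partner of Itgb4 in hemidesmosomes, at 351 against 93.01 FPKM, a log2 difference of 1.91. Itgb4 itself stood at 24.97 against 26.9 FPKM. Itga3, a laminin receptor subunit, stood at 149.99 against 42.2 FPKM, and Itgb6, a subunit of epithelia under repair, had the lowest difference, at 0.68003 against 5.63 FPKM.

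Of 20 genes of hemidesmosomes and focal adhesions, 2 were higher and 0 lower (median 1.10), and 4 were higher under median ratio scaling. Fermt1, the epithelial kindlin that activates integrins, stood at 86.9 against 7.94 FPKM, while Fermt2, the kindlin of other cells, stood at 73.005 against 82.1 FPKM. Col17a1, the transmembrane collagen of hemidesmosomes, stood at 115 against 23.3 FPKM. Plec, the linker between keratin filaments and the hemidesmosome, stood below MG, at 24.7 against 87.9 FPKM, short of the rule.

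Basement membrane genes differed chain by chain. Of 14 laminin, nidogen and related genes, 4 were higher and 2 lower (median 0.15), and 1 was lower under median ratio scaling. Lama1, the alpha chain of embryonic and glandular basement membranes, stood at 32.3 against 1.67 FPKM, a log2 difference of 3.64. Lama3 and Lamb3 encode chains of the laminin that anchors hemidesmosomes. Lama3 stood at 153 against 18.3 FPKM and Lamb3 at 106 against 15.1 FPKM, and both were called. The chains shared with other tissues had like levels in both libraries, with Lamb1 at 79.1 against 56.5 FPKM and Lamc1 at 94.5 against 97.6 FPKM. Nid1 and Nid2, which link laminin to collagen IV, were the lower members, at 23.9 against 136 and 2.43 against 13.96 FPKM. Lama2, the alpha chain of muscle and nerve, was left out for its status in MG and stood at 1.15 against 41.9 FPKM. Agrn, a heparan sulphate proteoglycan, was higher, at 136 against 31.3 FPKM.

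The collagens separated by type. Fibrillar collagens, the main fibres of connective tissue, had 6 of 8 members lower and 0 higher (median -3.58). Col1a1 stood at 15.9 against 598 FPKM and its partner chain Col1a2 at 18.7 against 640.1 FPKM. Col3a1, of reticular fibres, stood at 25.1 against 978 FPKM. Col11a1, which nucleates cartilage fibrils, stood above MG, at 10.5 against 3.17 FPKM. The other collagens had 7 higher and 5 lower of 18 (median 1.12).

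In that second group, the collagen IV genes of basement membranes differed in pairs. Col4a5 stood at 77.4 against 13.2 FPKM and Col4a6 at 50.7 against 5.08 FPKM, and both were higher. The ubiquitous pair was not called, with Col4a1 at 425 against 314 FPKM and Col4a2 at 363 against 176 FPKM. Genes of collagen IX, best known from cartilage, stood at 132 against 9.75 FPKM for Col9a2 and 80.9 against 7.21 FPKM for Col9a3, while Col9a1 stood at 15.9 against 6.16 FPKM. Col7a1, the anchoring fibril of skin, stood at 89.9 against 13.2 FPKM and Col16a1 at 389 against 57.7 FPKM. The abundant collagen VI genes of connective tissue were lower: Col6a1 at 29.5 against 135 FPKM, Col6a2 at 15.6 against 109.6 FPKM and Col6a3 at 10.4 against 167 FPKM. Col6a4, a weakly expressed chain that is not on the list, stood above MG, at 2.24 against 0.188 FPKM, and was not called.

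**Figure D3:**
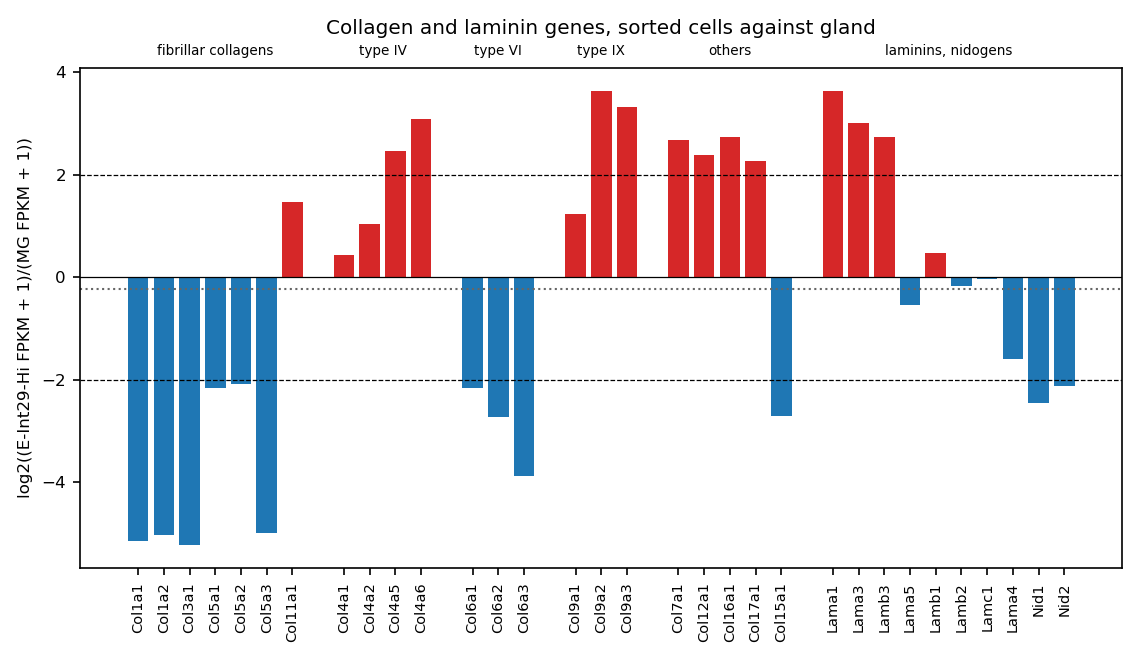
Log2 difference, E-Int29-Hi over MG with 1 FPKM added to each, of 32 collagen, laminin and nidogen genes, 1 bar each. Dashed lines mark the 4-fold rule and the dotted line the median of all models, -0.23. The fibrillar and collagen VI bars point down, except Col11a1, while Col4a5, Col4a6, Col9a2, Col9a3, Lama1, Lama3, Lamb3 and 4 of the 5 bars under "others" pass the upper line.

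Matrix glycoproteins and proteoglycans had 10 of 24 members lower and 0 higher (median -1.77). A pair of thrombospondins, secreted regulators of adhesion and vessels, pointed opposite ways. Thbs2 stood at 2.14 against 276 FPKM, a log2 difference of -6.46, whereas Thbs1 stood at 1338 against 449 FPKM, a log2 difference of 1.57. Fn1, fibronectin, was lower, at 15.2 against 271 FPKM, and Spp1, osteopontin, at 13.1 against 256 FPKM. Some genes best known from stroma were abundant on both sides and not called. Sparc, a collagen-binding protein, stood at 827 against 796 FPKM, Postn, periostin, at 652 against 446 FPKM, and Bgn, biglycan, at 121 against 114 FPKM. Eln, elastin, stood at 174 against 59.01 FPKM.

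The matrix protease list had 1 higher and 5 lower of 27 (median -1.23), and 10 lower as TPM. Serpinb5, maspin, a serpin of myoepithelial cells, was the higher one, at 102 against 14.8 FPKM. Mmp19 stood at 0.717 against 84.96 FPKM and Mmp3, stromelysin, at 0.587 against 62.5 FPKM, while Mmp2, a gelatinase, stood at 122 against 159 FPKM and Mmp14, its membrane-bound activator, at 72.3 against 86.8 FPKM.

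The marker lists of the other cells of the gland differed in how far they lay from MG. Fibroblast markers were lower for 20 of 22 (median -2.96), and their summed level was 396 against 4814 FPKM. Some of them, such as Col1a1, Col1a2, Col3a1 and Dcn, were also counted in the collagen and matrix lists above. Pdgfra, the receptor that marks fibroblasts, stood at 3.34 against 31.7 FPKM, and Dcn, decorin, at 62.7 against 493 FPKM. Endothelial markers stood below MG for 18 of 18, with 7 lower by the rule (median -1.69) and a summed level of 276 against 1009.6 FPKM. Cdh5, the cadherin of vessel lining, stood at 23.1 against 145 FPKM and Pecam1 at 31.3 against 133 FPKM, and no endothelial marker was listed at 0 in the sorted cells. The part of vessel cells in the other values was not tested. The count of lower endothelial markers was 2 under median ratio scaling and 9 as TPM, and none turned its sign. Of 9 pericyte markers, 2 were lower (1 under median ratio scaling), with Rgs5 at 10.6 against 47.8 FPKM (summed level 119 against 169.8 FPKM). Vascular smooth muscle shares the contractile genes described above, and its part in those values was not tested.

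Among leukocytes, the macrophage list had 0 higher and 1 lower of 18 (median -0.36), with a summed level of 175 against 281 FPKM. The lower member was Cd14 (log2 difference -2.95), given above with the luminal progenitor genes. Cd14 alone held a large part of the MG sum, so the gap between the sums is not one of the whole list. C1qa, a complement subunit made by macrophages, stood at 18.8 against 15.2 FPKM, Cd68 at 16.04 against 15.3 FPKM and Csf1r, the receptor of their growth factor, at 6.35 against 7.37 FPKM. Of 8 T and NK cell markers 1 was lower, Thy1, which fibroblasts also make, but 7 of them were lower as TPM, where the median was -2.57 in place of -1.30. Cd3e, a subunit of the T cell receptor complex, stood at 0.196 against 2.46 FPKM. The summed level of the T and NK cell list was 10.2 against 54.6 FPKM. For B cells it was 5.47 against 9.48 FPKM, and for granulocytes and mast cells 7.7001 against 37.8 FPKM (1 of 7 lower, 4 as TPM), and for dendritic cells 10.3 against 17.5 FPKM. Of 6 platelet and red cell markers, 3 were lower, all globin genes, such as Hba-a1 at 1.27 against 15.3 FPKM. Listed at 0 in E-Int29-Hi were Klrb1c, an NK cell receptor, Ms4a2 and Fcer1a, of the mast cell IgE receptor, and the neutrophil genes Ly6g, Ngp and Elane, all of them under 1 FPKM in MG. Since 72.3% of the windows of Hba-a1 are shared with other genes, its value cannot be told from that of its copies.

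Fat cell markers were lower for 5 of 14 (3 under median ratio scaling) and higher for 1 (median -1.19), with a summed level of 348 against 1118 FPKM. Lpl stood at 2.97 against 49.97 FPKM, and Slc2a4, the insulin-responsive glucose transporter, was the higher one, at 11.1 against 1.56 FPKM. Fabp4, which endothelium also makes, stood at 276 against 845 FPKM. The nerve list had 2 of 11 lower (1 under median ratio scaling; median -0.86), with a summed level of 119 against 197 FPKM. Of 6 lymphatic markers, 1 was higher and 0 lower (median 0.20). Reln, the secreted protein reelin, stood at 26.3 against 4.204 FPKM, while Prox1, the defining factor of lymphatic endothelium, stood at 0.334 against 1.35 FPKM. Skeletal muscle markers summed to 1.88 against 16.7 FPKM, with 1 of 6 lower (4 as TPM). Skin and hair markers summed to 22.7 against 12.7 FPKM, with 1 of 2 higher. The higher one was Lgr6, which is also on the Wnt list, at 19.6 against 2.49 FPKM. Lgr6 held most of the E-Int29-Hi sum, and the other compared member stood below MG (log2 difference -1.89).

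The 3 largest positive log2 differences of the comparison belonged to genes of the salivary gland list, Psp, Smr3a and Dcpp1. Of 18 members found in the tables, 11 reached 1 FPKM in either library, and 8 of these were higher and 0 lower (median 2.72). Psp, parotid secretory protein, stood at 147 against 0.121 FPKM, a log2 difference of 7.05. Smr3a, a submandibular gland protein, stood at 81.96 against 0.0367 FPKM, Dcpp1, from a family of secreted gland proteins, at 63.8 against 0.337 FPKM, and Amy1, salivary amylase, at 30.04 against 3.72 FPKM. Dcpp3 (3.898 FPKM in E-Int29-Hi) and Pip (2.78 FPKM) were listed at 0 in MG. Other genes of that tissue stood at or near 0: Bhlha15, the factor of serous secretory cells, at 0.127 against 0.528 FPKM, while Smr2, Muc19 and Prol1 were listed at 0 in E-Int29-Hi. The summed level of the list was 379 against 77.4 FPKM, and 1 member held most of the MG sum. Of the 11 compared members, 1 stood below MG, with a log2 difference of -1.98, just short of the rule. Whether these transcripts came from mammary cells or from tissue taken with the gland was not tested. None of the windows of Psp is shared with another gene, against 41.8% for Smr3a and 45.8% for Dcpp3. No window count was obtained for Dcpp1, so its value was not checked in this way.

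**Figure D4:**
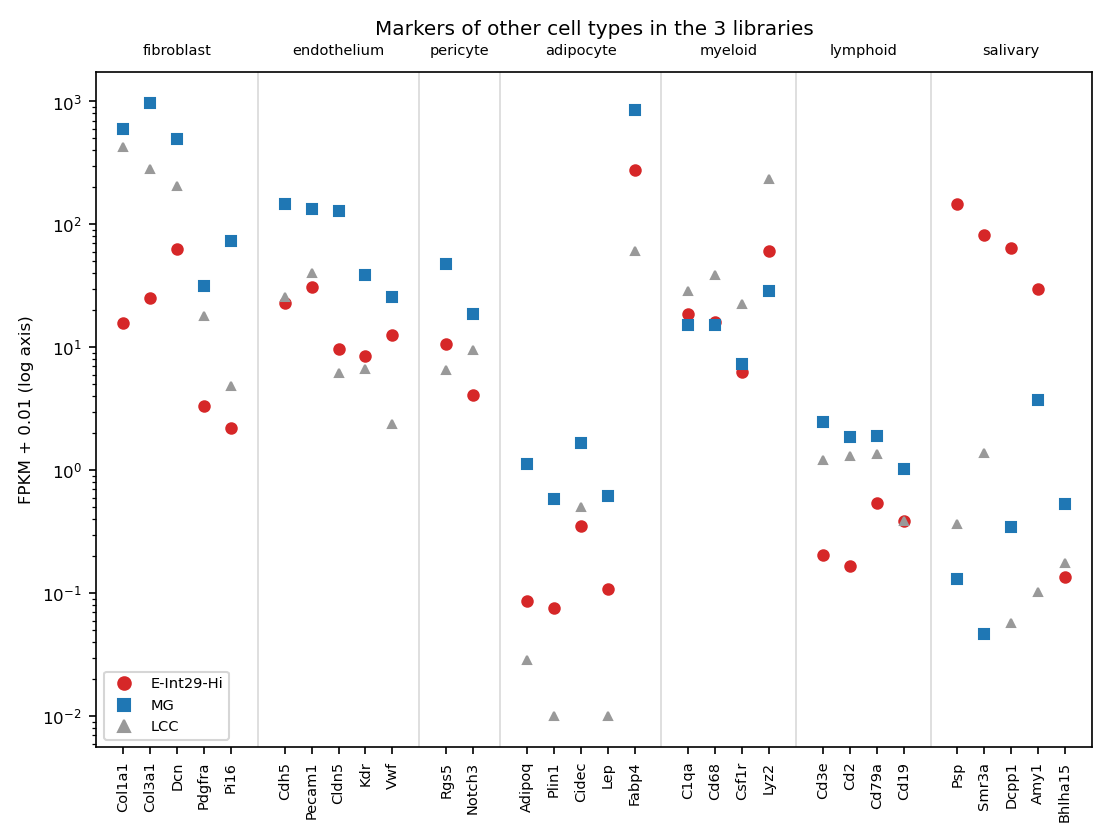
Level of 30 marker genes of other cell types in E-Int29-Hi (circles), MG (squares) and LCC (triangles), as FPKM + 0.01 on a log axis, 1 library each. The fibroblast and endothelial markers stand below MG in the sorted cells, the fat cell markers shown other than Fabp4 stand under 2 FPKM in each library, and Psp, Smr3a, Dcpp1 and Amy1 stand highest in E-Int29-Hi.

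Wnt signals maintain basal and stem cells in many epithelia. Of 33 Wnt pathway genes, 8 were higher and 4 lower (median 0.22). Among ligands, Wnt10a stood at 40.2 against 1.32 FPKM, a log2 difference of 4.15, and Wnt11 at 48.1 against 10.9 FPKM. Wnt5a stood at 4.66 against 24.3 FPKM, Wnt7b at 2.197 against 17.4 FPKM and Wnt2 at 0.0459 against 5.06 FPKM, all lower. The R-spondin receptors Lgr5 and Lgr6, both stem cell markers, stood at 19.8 against 2.003 and 19.6 against 2.49 FPKM, while Lgr4 stood at 25.4 against 10.9 FPKM. Antagonists were among the higher genes. Wif1, a secreted Wnt-binding inhibitor, stood at 107 against 3.61 FPKM, Rnf43, a ligase that removes Wnt receptors, at 27.2 against 2.56 FPKM, and Dkk3 at 42.6 against 5.46 FPKM. Sfrp4, another secreted inhibitor, was lower, at 0.869 against 21.2 FPKM. Some listed genes are used to report active signalling. Among them, Axin2 stood at 2.28 against 2.82 FPKM, Nkd1 at 6.45 against 1.28 FPKM and Nkd2 at 10.1 against 1.94 FPKM. Axin2, Nkd1 and Nkd2 were not called, whereas Tcf7 was, at 44.4 against 9.73 FPKM. Lgr5 and Rnf43, given above among the higher genes, are used in this way as well. The genes named here are not a complete set of Wnt target genes, and whether the pathway was active was not tested.

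In the Notch pathway, which drives luminal fate, ligands and receptors stood apart. Of 18 genes, 0 were higher and 4 lower (median -0.47), and only 1 was lower under median ratio scaling. The ligand genes Jag1 (89.7 against 28.98 FPKM), Jag2 (22.8 against 8.82 FPKM) and Dll1 (50.8 against 19.5 FPKM) stood above MG, each by less than 4-fold. Dll4, the ligand of vessels, was lower, at 3.66 against 19.6 FPKM. All receptor genes stood below MG, with Notch1 at 8.51 against 46.2 FPKM and Notch4 at 0.937 against 6.89 FPKM past the rule, and Notch2 at 10.8 against 26.5 FPKM and Notch3 at 4.07 against 18.8 FPKM short of it. Nrarp, a target of the pathway, stood at 1.896 against 16.998 FPKM, and Hes1, another, at 30.1 against 42.5 FPKM.

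In the EGF family, 2 were higher and 4 lower of 13 (median -0.76). The higher ligand gene was Tgfa, at 32.7 against 5.93 FPKM, and Nrg1, neuregulin, at 63.6 against 15.7 FPKM, fell just short (log2 difference 1.95). The ligand genes Areg, given above, Epgn (1.48 against 22.6 FPKM) and Btc (0.0219 against 5.37 FPKM) were lower. Egfr, their receptor, stood at 40.9 against 29.5 FPKM, while Erbb3, the neuregulin receptor, was lower, at 1.35 against 22.9 FPKM. Errfi1, a feedback inhibitor of Egfr, was the other higher member, at 1708 against 316 FPKM.

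Of 25 genes of the FGF, PDGF, HGF and IGF systems, 4 were higher and 6 lower (median -0.33), and under median ratio scaling 6 were higher and 3 lower (median 0.02). Hgf stood at 21.8 against 3.82 FPKM, whereas its receptor Met was lower, at 14.5 against 64.1 FPKM. Pdgfc stood at 31.4 against 5.82 FPKM, and Igfbp2 and Igfbp3, which bind insulin-like growth factors, at 135 against 11.4 and 381 against 83.3 FPKM. Igfbp5 stood at 515 against 221 FPKM, short of the rule, and Igfbp6 was lower, at 7.95 against 80.2 FPKM. In the TGF-beta and BMP list, 2 were higher and 2 lower of 26 (median -0.33), and 1 lower with a median of 0.02 under median ratio scaling. The higher ones were Ltbp2, a matrix protein of the latent TGF-beta complex family (174 against 13.98 FPKM), and Bmp7 (31.6 against 3.02 FPKM). Ltbp1 (3.75 against 22.6 FPKM) and Inhbb, an activin subunit (4.26 against 52.9 FPKM), were lower.

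Guidance genes, first known from axons, had 3 higher and 1 lower of 29 (median 0.63). Sema5a stood at 26.1 against 4.24 FPKM, Ephb1, an ephrin receptor, at 8.53 against 0.775 FPKM, and Ntn4, a netrin of basement membranes, at 20.4 against 3.45 FPKM, while Ntn1 was lower, at 2.75 against 15.9 FPKM. Of 17 Hippo pathway genes and YAP targets, 2 were higher and 1 lower (median 0.07). The related targets Ctgf and Cyr61, both secreted matrix-associated proteins, pointed opposite ways, with Ctgf at 1234 against 122 FPKM and Cyr61 at 156 against 435 FPKM. Amotl2, a target that restrains YAP, was left out for its status in MG and stood at 8.93 against 39.8 FPKM. Yap1 stood at 136 against 56.4 FPKM. The TEAD partners differed too, with Tead3 at 37.1 against 8.12 FPKM and Tead4 at 1.12 against 13.3 FPKM.

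Of 19 surface markers used to sort mammary cells, 3 were higher and 5 lower (median 0.18). Cdh3, P-cadherin, a marker of myoepithelium, stood at 95.1 against 5.48 FPKM, a log2 difference of 3.89. Mme, the peptidase CD10, stood at 54.5 against 9.66 FPKM. Cd24a stood at 212 against 175 FPKM and Cd44 at 169 against 149 FPKM, both within 2-fold. Procr, reported as a marker of mammary stem cells and also made by endothelium and fibroblasts, was lower, at 52.6 against 271 FPKM.

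Cell junction genes had 2 higher and 7 lower of 21 (median -0.85). The lower ones were led by the claudins, the sealing proteins of tight junctions, with Cldn1 at 1.78 against 57.8 FPKM, Cldn3 at 3.66 against 63.3 FPKM, Cldn4 at 40.2 against 366 FPKM and Cldn7 at 2.06 against 59.5 FPKM. Ocln, occludin, stood at 1.01 against 17.3 FPKM. Cdh1, E-cadherin, stood at 145 against 172 FPKM, within 2-fold. The desmosomal plakophilins took separate directions, with Pkp1 at 155 against 16.003 FPKM, Pkp2 at 0.3797 against 11.95 FPKM and Pkp3 at 71.5 against 48.4 FPKM. Gja1, the gap junction protein of myoepithelium, stood at 378 against 125 FPKM, short of the rule.

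Chemokines draw leukocytes into tissue. Of 24 chemokine genes, 10 were lower and 2 higher (median -1.65). Cxcl1 and Cxcl2, which attract neutrophils, stood at 83.1 against 852 and 18.8 against 288 FPKM, and Ccl2, which attracts monocytes, at 33.4 against 626 FPKM. Cxcl14, a chemokine of epithelia and of myoepithelial cells, was higher, at 735 against 54.5 FPKM, a log2 difference of 3.73, and Cxcl13, which attracts B cells, stood at 17.4 against 1.98 FPKM. Among 19 cytokine genes (median -1.03), 1 was higher, Il17b, of the interleukin 17 family, at 132 against 6.03 FPKM. The 5 lower ones included Il33, an alarmin, at 2.62 against 46.6 FPKM, Il6 at 43.1 against 182 FPKM and Csf2, which encodes GM-CSF, at 0.694 against 18.7 FPKM.

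Interferon-induced genes stood below MG for 24 of 24, with 9 lower by the rule (median -1.72). Under median ratio scaling 23 of the 24 stood below and 5 were lower by the rule, and as TPM 18 were lower (median -2.44). Gbp2, a guanylate-binding protein, stood at 7.35 against 69.8 FPKM and Iigp1, an immunity-related GTPase, at 7.53 against 64.4 FPKM. Irf1, an interferon-regulated factor, stood at 43.97 against 55.5 FPKM and is the member that turned. None of 16 antigen presentation genes was called (median -0.87), with H2-K1 at 186 against 307 FPKM and Cd74, the invariant chain, at 59.5 against 165 FPKM. Of 18 complement genes, 4 were lower and 0 higher (median -1.19; 2 lower under median ratio scaling and 6 as TPM), with Cd55, which blocks complement on the cell surface, at 2.64 against 42.96 FPKM.

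A group of genes that glucocorticoids can induce, listed with their receptor, had 6 higher and 1 lower of 23 (median 0.25). Of these, 12 stood above MG and 11 below. Fkbp5, the chaperone that feeds back on the receptor, stood at 4.57 against 10.6 FPKM and Tsc22d3 at 5.96 against 9.802 FPKM. Nr3c1, the receptor, stood at 24.4 against 35.6 FPKM. Per1 stood above MG, at 75.2 against 26.8 FPKM, and was not called. Which inducer acted on the higher members was not tested. Mt1 and Mt2, metallothioneins, are small zinc-binding proteins that metals also induce. Mt1 stood at 4624 against 559.97 FPKM, a log2 difference of 3.04, and Mt2 at 3072 against 565 FPKM, a log2 difference of 2.44. Pdk4, a kinase that turns glucose away from oxidation, stood at 254 against 11.7 FPKM, and LCC held 231 FPKM of it. Ddit4, an inhibitor of the mTOR kinase that hypoxia also induces, stood at 484 against 64.5 FPKM. Errfi1 and Lcn2 are given above, and Glul, glutamine synthetase, was the lower member, at 33.9 against 139.8 FPKM.

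Metallothionein genes are switched on through metal response elements. The RefSeq promoter windows of both genes lie on the plus strand of chromosome 8 (GRCm38.p6), that of Mt2 at chr8:94172368-94172667 and that of Mt1 at chr8:94178839-94179138, with 6171 bases between them. They are shown since this neighbouring pair stood higher together. The core was searched as TGCACNC and TGCGCNC on both strands, and matches are in capitals:
Mt2: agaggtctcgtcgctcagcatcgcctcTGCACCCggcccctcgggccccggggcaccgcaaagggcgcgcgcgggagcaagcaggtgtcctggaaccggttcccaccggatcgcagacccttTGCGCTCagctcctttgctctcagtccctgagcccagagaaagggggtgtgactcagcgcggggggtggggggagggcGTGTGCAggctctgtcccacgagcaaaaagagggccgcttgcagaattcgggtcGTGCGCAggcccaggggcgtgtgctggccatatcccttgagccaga
Mt1: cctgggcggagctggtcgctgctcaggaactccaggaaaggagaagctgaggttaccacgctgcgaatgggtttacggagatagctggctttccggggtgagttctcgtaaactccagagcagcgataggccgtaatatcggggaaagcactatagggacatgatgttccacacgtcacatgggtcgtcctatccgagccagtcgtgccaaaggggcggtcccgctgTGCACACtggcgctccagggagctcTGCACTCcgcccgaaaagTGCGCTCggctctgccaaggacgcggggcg
The Mt2 window held 4 matches and the Mt1 window 3. Of all 32851 windows, 25.7% held at least 1 match, 1.97% at least 3 and 0.517% at least 4. These matches describe the letters and do not show which inducer acted.

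Immediate early genes, which many stimuli induce within minutes, were abundant on both sides, and none of the 27 listed members that could be compared was called (median 0.06, and -0.11 as TPM). Egr2, a zinc finger factor, and Dusp7, a phosphatase of MAP kinases, are on the list but were left out for their status in E-Int29-Hi. Egr2 stood at 137 against 17.3 FPKM and Dusp7 at 134 against 17.1 FPKM, both more than 4-fold above MG. Arc, an immediate early gene that is not on the list, was higher, at 491 against 30.7 FPKM. Fos stood at 369 against 604 FPKM, Egr1 at 209.6 against 394 FPKM, Junb at 614 against 453 FPKM and Nr4a1 at 244 against 127 FPKM. None of 16 heat shock genes was called either (median -0.20), with Hspb1, a small chaperone, at 516 against 166 FPKM. Of 19 genes of the integrated stress and unfolded protein response, 2 were lower (median -0.02), Chac1 (2.89 against 23.5 FPKM) and Psat1 (6.21 against 35.6 FPKM), and Ddit3 stood at 29.8 against 12.8 FPKM. Of 13 targets of the antioxidant factor NRF2 (median -0.70; 1 lower under median ratio scaling and 4 as TPM), Gclc (9.34 against 44.4 FPKM) and Gpx3 (10.6 against 140.1 FPKM) were lower.

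Sugar use and oxygen-responsive genes had 3 higher and 0 lower of 23 (median 0.67). Slc2a1, the widespread glucose transporter, stood at 545 against 114 FPKM, and Car9, a carbonic anhydrase induced by hypoxia, at 10.8 against 1.61 FPKM. Pdk4 was the other higher member. Vegfa, also on the list, was left out for its status in both libraries and stood at 766 against 140.2 FPKM. Ldha, lactate dehydrogenase, stood at 321 against 146 FPKM, Hk2, hexokinase, at 24.7 against 64.3 FPKM and Bnip3, a hypoxia target, at 4.46 against 4.65 FPKM. Gapdh was listed at 15.8 against 8.24 FPKM, and 24.7% of its windows are shared with other genes. Among 19 lipid genes, 1 was lower and 0 higher (median -0.69). The lower one was Scd1, the stearoyl desaturase, at 6.32 against 67.6 FPKM.

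No gene of the cell cycle list was called, and members under 3 FPKM in both libraries could not have been. All 21 of 21 stood below MG (median -0.60), and 17 did so under median ratio scaling. Mki67, the proliferation antigen, stood at 1.01 against 4.001 FPKM and Pcna, which holds polymerase on DNA, at 40.4 against 46.5 FPKM. In the clock list of 19 genes (median 0.25), Bhlhe41 (122 against 28.3 FPKM) was higher and Npas2 (0.0613 against 3.37 FPKM) lower, counts that became 2 and 0 under median ratio scaling and 0 and 2 as TPM. Arntl, a core activator of the clock, stood at 3.01 against 14.6 FPKM and Per1, a core repressor, at 75.2 against 26.8 FPKM.

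Genes of basic cell function differed little. All 31 of 31 cytosolic ribosomal protein genes stood above MG with FPKM as deposited, under median ratio scaling and as TPM, and none was called (median 0.59). Rplp0, of the ribosomal stalk, stood at 503 against 419 FPKM. Of 24 nuclear genes of oxidative phosphorylation none was called (median 0.27), nor was any of 13 mitochondrially encoded subunits (median -0.11). None of 13 housekeeping genes was called (median 0.31), and Actb, cytoplasmic actin, stood at 763 against 792 FPKM.

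**Figure D5:**
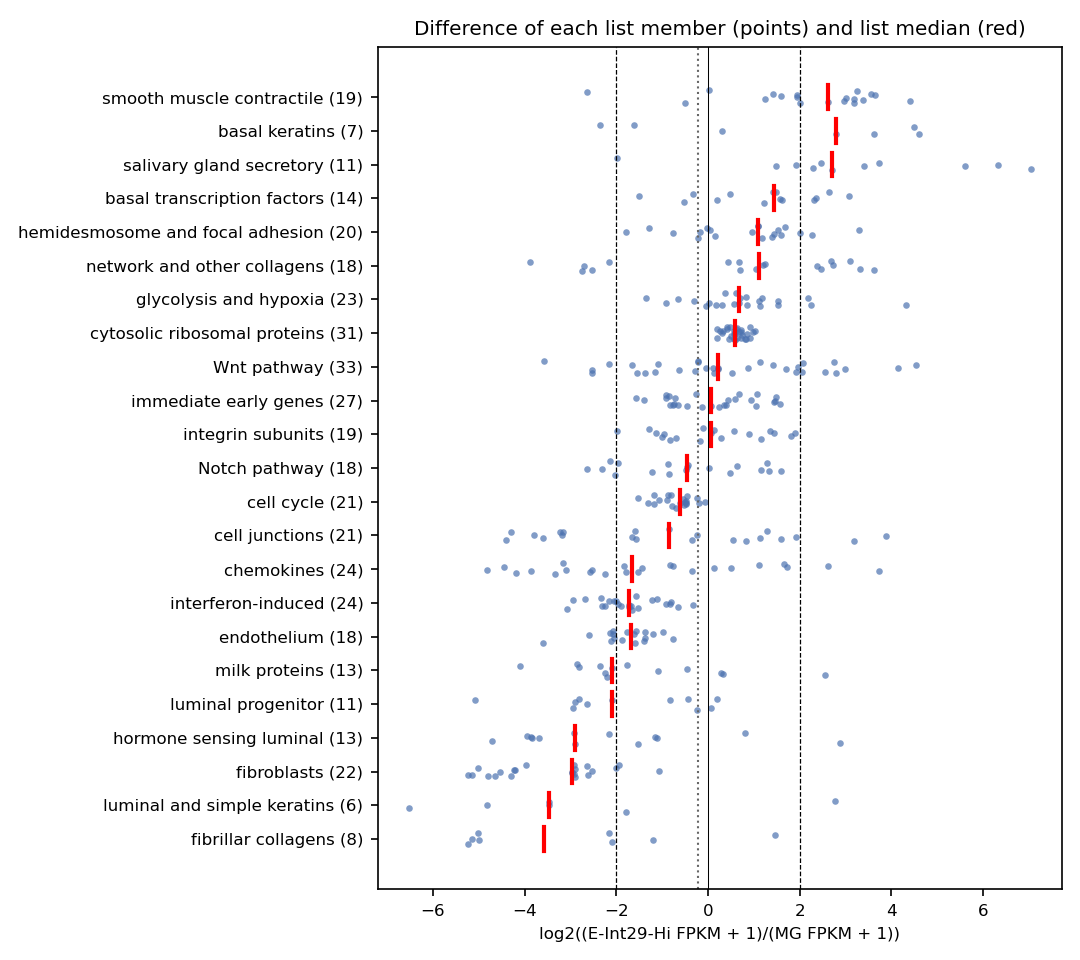
Log2 difference, E-Int29-Hi over MG with 1 FPKM added to each, of every compared member (points, with their number in brackets) of 23 gene lists, and the median of each list (red bar). Dashed lines mark the 4-fold rule and the dotted line the median of all models, -0.23. Contractile, basal keratin and salivary gland medians lie above 2. Those of fibrillar collagens, simple keratins, fibroblasts, hormone-sensing luminal, luminal progenitor and milk protein genes lie below -2. The ribosomal proteins form a narrow group above 0.

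Several genes with extreme differences stand on no list. Among the 20 highest at 10 FPKM or more, Mybph, a myosin-binding protein of muscle, stood at 114 against 1.46 FPKM, a log2 difference of 5.55. Stac2, a partner of muscle calcium channels, stood at 242 against 12.8 FPKM, and Pdlim3, a protein of actin-anchoring discs, at 62.7 against 2.52 FPKM. Scx, a tendon transcription factor, stood at 34.7 against 0.734 FPKM, Trh, thyrotropin-releasing hormone, at 20.9 against 0.345 FPKM, and Htr1d, a serotonin receptor, at 40.03 against 1.49 FPKM. Gpr3, a receptor that raises cyclic AMP, stood at 50.6 against 2.27 FPKM. Rab27a, a regulator of secretory vesicles, stood at 37.04 against 1.45 FPKM.

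Among the 20 lowest, Il1rl1, the receptor of interleukin 33, stood at 0.5004 against 73.1 FPKM, a log2 difference of -5.63. Its ligand Il33, given above, was lower too. Klk10, a kallikrein protease, stood at 0.306 against 42.7 FPKM, Htra3, a secreted protease, at 2.05 against 77.9 FPKM, and Fgb, a fibrinogen chain, at 0.687 against 54.1 FPKM. Lgals3, galectin-3, stood at 14.7 against 441 FPKM, Basp1, a membrane-associated signalling protein, at 2.496 against 96.9 FPKM, and Ifi205, of an interferon-induced family, at 2.299 against 120.1 FPKM.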

How the data were processed

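For each library the deposited file lists the gene models, each with its FPKM and a status code. Libraries were made from poly-T-captured RNA and sequenced on a HiSeq instrument, per the labels. The submitters' processing notes name TopHat 1.4.1, Cufflinks 1.3.0 and mm9 but no role for them. The annotation release and the read numbers are not given in the sources used here. Depth is therefore unknown, and no interval could be computed.

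The 2 tables were joined by gene identifier. 78 models lacked a value, and a status other than OK removed 89 more. Models at 1 FPKM or more in either library entered log2((E-Int29-Hi FPKM + 1)/(MG FPKM + 1)), with a threshold of 2 in size. An exact 0 can be a failed estimate and is given as listed at 0.

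The genes and the 59 lists were chosen with earlier results of these data known. Named genes were every list member past the rule, the 6 most abundant members of each list, the 20 highest and lowest differences at 10 FPKM or more (small RNA, pseudogene and unnamed models left out), Epcam and Itgb1. Others, such as the genes at the edge of the rule, fat cell markers, and members set beside a called relative, were named after their values were seen. Of a symbol's several models, the one with the highest summed FPKM was used. A few genes that the rule names are not reported here. The symbol table matched 20773 of the identifiers.

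Alternatives were pseudocounts of 0.1 and 5 FPKM, no filter or one at 5 FPKM, median ratio scaling, TPM without mitochondrially encoded, small RNA and unnamed models, summed models and models of every status. Promoter windows came from RefSeq (GRCm38.p6), and shared windows of 50 bases from GENCODE vM21 transcripts, which are of another build than the files, so no coordinate of the files is given. The computation was tested on simulated data. Python 3.11.15, numpy 2.4.6, pandas 2.3.3 and matplotlib 3.10.9 were used.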

Additional observations from a re-analysis of the deposited data

Results flagged for a closer look

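Some gene models were left out of the comparison because the status of at least 1 value was not OK, although the sorted library held at least 10 FPKM of them and 4-fold or more the level of MG. They lie outside the main measurement, and their values are less certain. Vegfa, the vessel growth factor, stood at 766 against 140.2 FPKM, with neither status OK. Egr2, a zinc finger factor, stood at 137 against 17.3 FPKM, Dusp7, a phosphatase of MAP kinases, at 134 against 17.1 FPKM, and Fhod3, a formin of muscle cells, at 49.3 against 1.296 FPKM, each with a doubtful status in E-Int29-Hi. A Sox4 model with a doubtful status in both libraries stood at 272 against 32.2 FPKM. A second Sox4 model had an OK status in both and was called higher, at 512 against 76.2 FPKM. The same reason left out models with lower values in the sorted cells. Lama2, a laminin chain, stood at 1.15 against 41.9 FPKM, Myh14, a non-muscle myosin, at 4.73 against 56.3 FPKM, Amotl2 at 8.93 against 39.8 FPKM, and Irgm1, an immunity-related GTPase, at 6.26 against 28.9 FPKM, each with a doubtful status in MG.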

How the results depend on the processing

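With a pseudocount of 0.1 FPKM, 523 models were higher and 1092 lower, and with 5 FPKM, 139 and 159. TPM gave 1022 lower models. Median ratio scaling turned the median of all models from -0.23 to 0.0909. The other counts of higher and lower models stayed within 1.5 times of 325 and 495, and the other medians stayed negative. Of 256 called genes among the 465 that the naming rule gave, 105 fell under the threshold with a pseudocount of 5 FPKM, 40 with median ratio scaling and 7 with TPM, and none did under the other alternatives. No called gene changed direction. The sign of 23 uncalled genes turned with median ratio scaling and of 15 with TPM. No paired analysis was possible because each group has 1 library. For the same reason no replicate could be left out, so neither variation between mice nor between sorts is covered.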

Other observations

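Further genes with large differences belong to no list and were chosen after their values were seen. Higher in E-Int29-Hi were Sfn, the epithelial 14-3-3 protein (1119 against 113 FPKM), Pmepa1, an inhibitor of TGF-beta signals (786 against 105 FPKM), Csrp1, a protein of smooth muscle (581 against 108 FPKM), and Alpl, tissue alkaline phosphatase (139 against 12.9 FPKM). Serpina3n, a secreted protease inhibitor, stood at 467 against 66.5 FPKM.

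Lower in E-Int29-Hi were Tnfaip6, a hyaluronan-binding protein of inflammation (9.69 against 261 FPKM), F3, tissue factor (63.7 against 362 FPKM), Ptx3, a secreted pattern recognition protein (64.04 against 354 FPKM), and Anxa1, an annexin (45.3 against 297 FPKM). In LCC, Anxa1 stood at 821 FPKM and Tnfaip6 at 336 FPKM. The model Gm6020 was listed at 0 in E-Int29-Hi and at 674 FPKM in MG. One of 2 models named Uck2 (ENSMUSG00000053664) stood at 909.6 against 106 FPKM and the other (ENSMUSG00000026558) at 33.9 against 25.8 FPKM.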
